A study of Homo sapiens and Mus musculus with 12 samples.

Results

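The regions described here are the GATA6 and SPDEF peaks on human chromosome 12 in HPAF-II cells, an established human pancreatic ductal adenocarcinoma (PDA) line. A peak is a stretch of genome where a caller found more sequenced fragments than its background. Members were all chromosome 12 peaks of both lists except those within 1 Mb of the centromere bands, which left 931 of 10670 GATA6 peaks and 331 of 2775 SPDEF peaks. They make 1262 of the 13445 peaks in both lists, and 19 GATA6 and 5 SPDEF peaks near the centromere were left out. Chromosome 12 was chosen by its measured number of peaks, so its excess over other chromosomes is a description and carries no test. At the border of the rule on the short arm, the last GATA6 peak kept lay 1187 kb from the centromere bands and the nearest one left out lay 746.9 kb away. On the long arm these GATA6 distances were 1086 kb and 578.9 kb. For SPDEF they were 1402 kb and 746.9 kb on the short arm, and 4984 kb and 579.1 kb on the long arm.

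The peaks come from CUT&RUN, in which an antibody brings a nuclease to chromatin and the released fragments are sequenced. All HPAF-II libraries came from cells with HA-tagged human SPDEF. SPDEF was read through an antibody against the HA tag in 3 libraries, while GATA6 was read with its own antibody in another 3 libraries of the same tagged cells. No untagged HPAF-II cells are among the samples used here, and whether the tagged line is 1 clone, and how high the tagged protein stood against the cell's own, is not stated in the sources used. Each factor is given as 1 list of positions without heights, so there is no replicate error: intervals below are 95% intervals for counting error only, and they are too narrow because peaks cluster.

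GATA6 is a zinc-finger transcription factor of endoderm and pancreas whose expression marks classical PDA tumours. SPDEF is an ETS-family transcription factor known for directing mucus-secreting goblet cells and other secretory epithelium. Both bind short DNA motifs, mostly in open chromatin at enhancers and promoters, and neighbouring enhancers of an active locus often give runs of peaks. Chromosome 12 has a short arm (12p) and a much longer long arm (12q), each divided into cytogenetic bands such as 12q13.13. All positions are in hg19, counted from 1. Genes are placed by band name only, from a gene table of another build, so band borders may differ slightly and a band's count says nothing about a single gene in it.

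Over the whole chromosome there were 7.33 GATA6 peaks per Mb against 3.45 on the other chromosomes, a ratio of 2.13 (1.99 to 2.27). SPDEF had 2.61 peaks per Mb against 0.824, a ratio of 3.16 (2.83 to 3.52). Among 23 chromosomes it ranked 1 for GATA6 and 2 for SPDEF, chromosome 20 being above it for SPDEF. Of 41 chromosome arms, 12q ranked 1 for GATA6 and 2 for SPDEF, while 12p ranked 9 and 7. The long arm had 8.15 GATA6 peaks per Mb and the short arm 4.95, a ratio of 1.64 (1.39 to 1.96). For SPDEF the values were 2.98 and 1.52 per Mb, a ratio of 1.96 (1.45 to 2.72).

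The excess was not spread along the chromosome. Taken as whole sections, 3 stretches had a density in both lists close to that of the other chromosomes. They were the outer short arm from 12p13.33 to 12p12.1, 12q12 beside the centromere, and the end of the long arm from 12q24.32 to 12q24.33. The outer short arm, 20.9% of the length considered, held 90 GATA6 peaks (3.40 per Mb) and 22 SPDEF peaks (0.830 per Mb), which are 0.985 and 1.01 times the density elsewhere. Its inner border cuts a dense segment, and 21 of its GATA6 and 8 of its SPDEF peaks lay past 26 Mb. Before 26 Mb the density was lower, 2.65 GATA6 and 0.539 SPDEF peaks per Mb, below that of the other chromosomes. Band 12q12 held 21 GATA6 and 5 SPDEF peaks, or 0.846 and 0.843 times. The end of the long arm held 24 and 7, or 0.876 and 1.07 times. Between these stretches every section lay above 2 times the density elsewhere for both factors. The inner short arm, 12p11.23 to 12p11.21, had 12.07 GATA6 peaks per Mb (9.41 to 15.2) and 4.66 SPDEF peaks per Mb (3.07 to 6.77), which are 3.50 and 5.65 times. The 12q13 bands had 11.8 GATA6 peaks per Mb (9.91 to 13.9) and 6.67 SPDEF peaks per Mb (5.27 to 8.32), or 3.42 and 8.09 times. The 12q21 bands had 10.4 GATA6 peaks per Mb (9.09 to 11.9) but 2.46 SPDEF peaks per Mb (1.84 to 3.23), or 3.03 and 2.99 times. The 12q13 and 12q21 sections thus had GATA6 intervals that overlap and SPDEF intervals that do not. This is no test, because the intervals are too narrow and the section borders were set after seeing the counts.

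**Figure D1:**
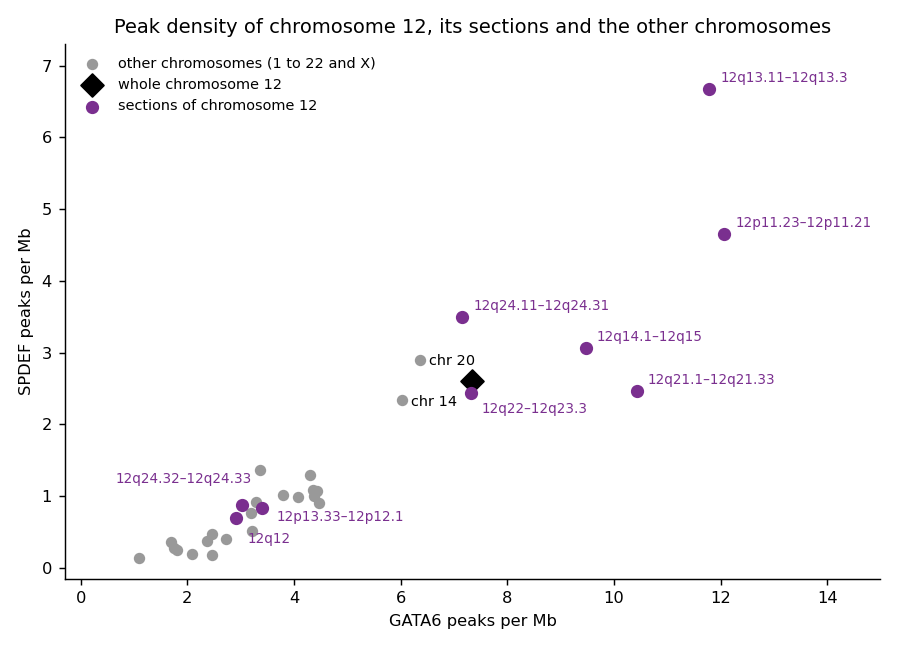
GATA6 peaks per Mb (horizontal axis) and SPDEF peaks per Mb (vertical axis) for each other chromosome (grey), the whole of chromosome 12 (black) and 9 sections of it (purple). The outer short arm, 12q12 and the end of the long arm lie among the other chromosomes, near 3 GATA6 peaks per Mb, while 12p11.23–12p11.21 and 12q13.11–12q13.3 reach 12.07 and 11.8.

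In windows of 1 Mb, a window was called dense where it had at least 3 times the mean peaks per Mb of the other chromosomes, that is 10.4 for GATA6 and 2.48 for SPDEF. By this rule 29 of 127 windows (22.8%) were dense for GATA6, beside 6.75% of windows on the other chromosomes. For SPDEF 44 windows (34.6%) were dense, beside 10.7%, and 24 windows (18.9%) were dense for both, beside 3.45%. These counts follow from the choice of chromosome. Dense windows joined into 18 segments for GATA6 and 21 for SPDEF. Of the windows dense for GATA6, 82.8% were dense for SPDEF, and of those dense for SPDEF, 54.5% were dense for GATA6. On the other chromosomes these shares were 51.1% and 32.1%. Where more windows are dense, more are dense for both, so these shares also move with the choice of chromosome. Window counts of the factors had a Pearson r of 0.72 and a Spearman rho of 0.67 over 127 windows, which are neighbours from 1 cell line and no independent samples. Over 2757 windows of the other chromosomes r was 0.58 and rho 0.61. A GATA6 window just inside the rule held 11 peaks (3 windows) and one just outside held 10 (7 windows). For SPDEF the counts were 3 (11 windows) and 2 (16 windows), so many SPDEF windows lie next to the border.

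**Figure D2:**
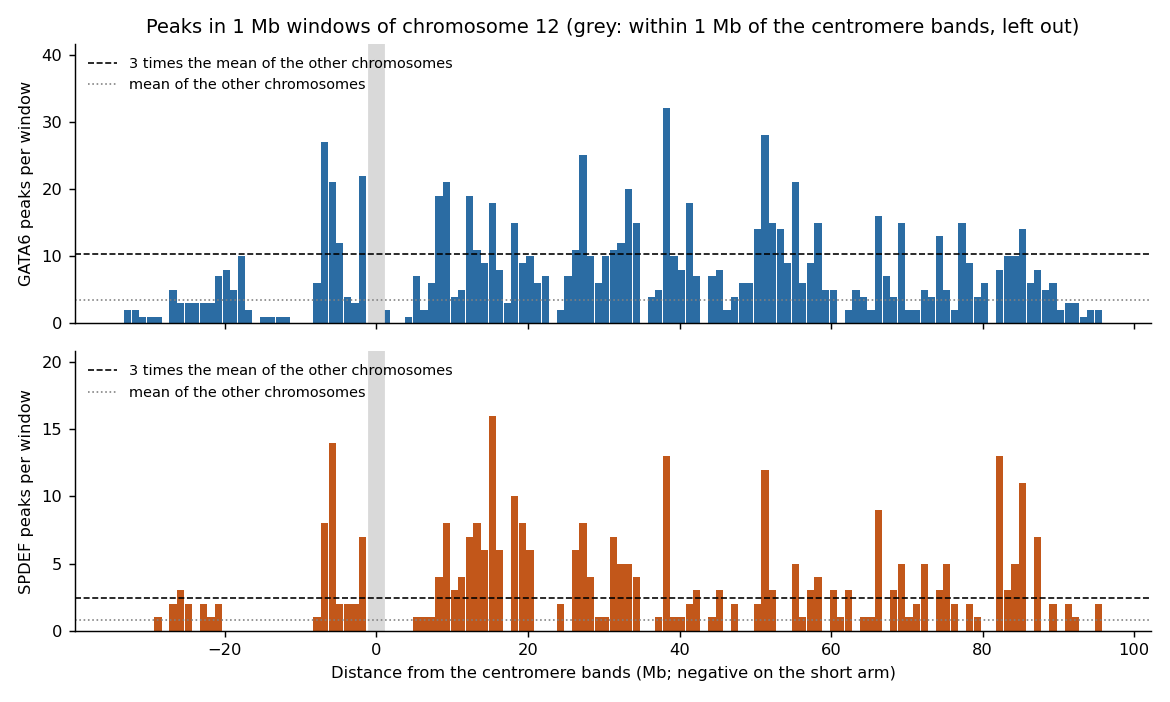
GATA6 (top) and SPDEF (bottom) peaks in each 1 Mb window against the distance from the centromere bands in Mb, short arm at negative values. The dashed line marks 3 times the mean of the other chromosomes, and the bars of the short arm stay under it for GATA6 until about 7 Mb before the centromere bands.

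On the short arm the density changed within 12p12.1. The 26 windows from the chromosome's start to 26 Mb held 69 GATA6 peaks, a median of 2 and at most 10 per window, and 0 of them was dense. In the same windows there were 14 SPDEF peaks, 18 windows had 0 SPDEF peaks, and 1 window, at 7 to 8 Mb in 12p13.31, was dense with 3. The 6 windows from 26 to 32 Mb held 89 GATA6 peaks, with a median of 16.5, and 35 SPDEF peaks, with a median of 4.5. Per Mb this is 14.8 against 2.65 for GATA6 and 5.83 against 0.539 for SPDEF. The step stood next to the longest stretch without a peak of either list on the chromosome, chr12:21597695-25074997, which spans 3477 kb of 12p12.1. Of the 28 GATA6 peaks in 12p12.1, 27 lay on the centromere side of that gap and 21 of them past 26 Mb. All 9 SPDEF peaks of the band lay on that side too, 8 of them past 26 Mb. Within the outer short arm, 12p13.1 stood out for GATA6, with 18 peaks (9 per Mb). It held 2 SPDEF peaks (1 per Mb), beside 0.830 per Mb over the whole outer short arm.

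The segment at 26 to 29 Mb, from 12p12.1 to 12p11.22, held 60 GATA6 and 24 SPDEF peaks, the second-highest GATA6 count of any dense segment here. Its first window had 27 GATA6 and 8 SPDEF peaks, its second 21 and 14. SPDEF was dense over 26 to 28 Mb, with 48 GATA6 and 22 SPDEF peaks. In it lies 12p11.23, which had the highest density of all 39 bands in both lists, 18.5 GATA6 and 10.0 SPDEF peaks per Mb, the SPDEF value being tied with 12q13.13. The table places 9 protein-coding genes in 12p11.23, among them ITPR2, an endoplasmic reticulum calcium channel, the kinase gene STK38L and BMAL2, a circadian transcription factor also called ARNTL2. Nearer the centromere the window at 31 to 32 Mb, in 12p11.21, held 22 GATA6 and 7 SPDEF peaks. The 1.6 Mb of 12p11.21 that the rule keeps had 16.9 GATA6 peaks per Mb and 5.63 SPDEF peaks per Mb. Between these segments the windows at 29 to 30 Mb and 30 to 31 Mb held 4 and 3 GATA6 peaks, and 2 SPDEF peaks each.

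Past the centromere, the 6 windows from 40 to 46 Mb held 16 GATA6 and 3 SPDEF peaks, and 0 was dense. The second-longest stretch without peaks, 2812 kb at chr12:39630738-42442992, lies there in 12q12. From 46 Mb the counts rose in both lists. The longest SPDEF segment of the chromosome ran from 46 to 55 Mb, 9 windows from 12q12 to 12q13.2 with 62 SPDEF and 114 GATA6 peaks. For GATA6 the same stretch was broken into segments at 46 to 48 Mb (40 peaks), 50 to 52 Mb (30 peaks) and the single window at 53 to 54 Mb (18 peaks). That last window had 16 SPDEF peaks, more than any other window on the chromosome. It lies in 12q13.13, a band with 39 GATA6 and 34 SPDEF peaks, whereas the whole chromosome had 931 and 331. Band 12q13.13 holds the type II keratin genes with KRT18, and the HOXC homeobox cluster. A further SPDEF segment at 56 to 59 Mb, from 12q13.2 to 12q14.1, held 24 SPDEF and 34 GATA6 peaks. Band 12q13.3 in it had 6.67 SPDEF peaks per Mb, the third-highest density for that factor, and 9.33 GATA6 peaks per Mb. The neighbouring bands 12q13.11 and 12q13.12 had 15.2 and 12.9 GATA6 peaks per Mb, with 4.81 and 5.42 for SPDEF, and 12q13.2 had 4.71 SPDEF peaks per Mb.

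Farther out, the 12q14 to 12q15 bands held segments at 64 to 66 Mb, with 36 GATA6 and 14 SPDEF peaks, and at 69 to 73 Mb, with 58 and 21. For SPDEF the first reached to 67 Mb, with 18 SPDEF and 46 GATA6 peaks, and the other was the same. Band 12q14.2, which contains the kinase gene TBK1, had 13.5 GATA6 peaks per Mb. The segment at 69 to 73 Mb spans 12q15, the band of LYZ (lysozyme) and MDM2 (a p53 inhibitor), and the start of 12q21.1, the band of TSPAN8, a tetraspanin of epithelial cells. Band 12q14.1 and band 12q21.1 also held stretches of 1910 kb and 1905 kb without a peak, so dense and empty stretches alternated.

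In 12q21 the peaks were concentrated in a few windows. The window at 76 to 77 Mb, in 12q21.2, held 32 GATA6 peaks, the highest count on the chromosome, and 13 SPDEF peaks. Band 12q21.2 had 16.5 GATA6 and 4.13 SPDEF peaks per Mb and contains PHLDA1 and E2F7, a repressor of cell-cycle genes. The segment at 88 to 92 Mb had the most GATA6 peaks of all segments, 71, with 17 SPDEF peaks, of which 15 lay at 89 to 91 Mb. It covers most of 12q21.33, with 17.8 GATA6 peaks per Mb, the second-highest band. The 12 protein-coding genes placed there include DUSP6, a phosphatase that acts on ERK, GALNT4, an enzyme that starts mucin-type O-glycans, and the stromal proteoglycan genes LUM and DCN. Of the 29 windows dense for GATA6, 2 had 0 SPDEF peaks, 1 of them at 115 to 116 Mb in 12q24.21, the band of TBX3, with 15 GATA6 peaks.

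In the outer long arm fewer windows were dense for GATA6 than for SPDEF. The same held over the whole chromosome (29 against 44) and on the other chromosomes (6.75% against 10.7%). A dense window needs 11 GATA6 peaks but only 3 SPDEF peaks. The SPDEF segment at 120 to 124 Mb, from 12q24.23 to 12q24.31, held 32 SPDEF and 42 GATA6 peaks, while for GATA6 only the window at 123 to 124 Mb was dense, with 14. Its first window had 13 SPDEF and 8 GATA6 peaks, 1 of 3 windows on the chromosome in which SPDEF peaks were the more numerous. The middle windows of the segment held 10 GATA6 peaks each, the highest count not called dense. Band 12q24.31 had 5.77 SPDEF peaks per Mb, rank 4 among the bands, and 10.2 GATA6 peaks per Mb. It contains SCARB1, a lipoprotein receptor. Band 12q24.12, only 0.6 Mb long, had 10 GATA6 peaks (16.7 per Mb) and 2 SPDEF peaks (3.33 per Mb). Past 126 Mb the 8 windows to the end of the chromosome had at most 6 GATA6 and 2 SPDEF peaks each, and 0 was dense.

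Over the 39 bands the densities of the factors had a Spearman rho of 0.80. The number of protein-coding genes per Mb had a rho of -0.0051 with GATA6 and of 0.33 with SPDEF. The 12q21 section had 2.89 genes per Mb and 3.61 GATA6 peaks per gene, whereas 12q13 had 23.33 genes per Mb and 0.505 GATA6 peaks per gene. The outer short arm had 9.47 genes per Mb, more than 12p11 with 5.15, yet 0.359 GATA6 peaks per gene against 2.00. For SPDEF these were 0.0876 and 0.771 per gene. The 12p11 genes are those of the whole bands, 6.8 Mb, while its peaks exclude the 1 Mb beside the centromere bands, so its values per gene are low estimates. The bands with the lowest GATA6 density were 12p13.32 (0.476 per Mb, 1 peak), 12p12.2 (0.769 per Mb, 1 peak) and 12p13.33 (1.82 per Mb, 6 peaks). Giemsa-negative bands, which as a rule are richer in genes, had 8.81 GATA6 and 3.43 SPDEF peaks per Mb, and Giemsa-positive bands had 6.16 and 1.96. On the short arm before 12p11 the stain made little difference for GATA6, 3.45 against 3.35 per Mb. In 12p11 and the long arm the values were 10.2 and 6.93.

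**Figure D3:**
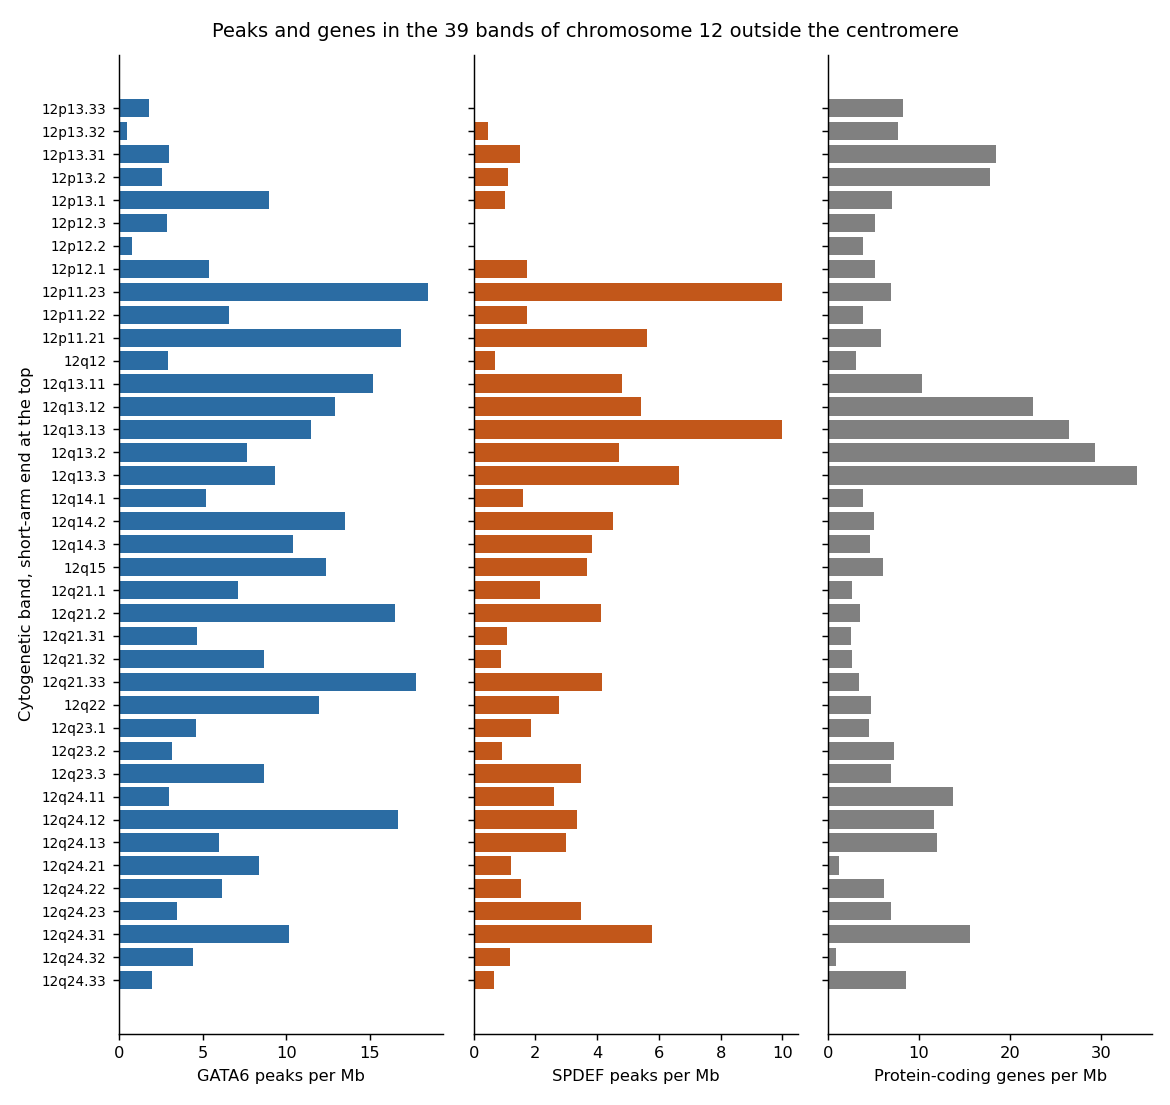
GATA6 peaks, SPDEF peaks and protein-coding genes per Mb (horizontal axes) in each of the 39 bands from the short-arm end (top) to the long-arm end (bottom). GATA6 density is high in gene-poor 12q21.33 (17.8 per Mb) and in gene-rich 12q13.13 (11.5 per Mb). It is low in gene-rich 12p13.31 (2.98 per Mb) and in gene-poor 12q12 (2.92 per Mb). SPDEF density reaches 10.0 per Mb in 12p11.23 and 12q13.13.

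Genes of lists chosen for this tissue were placed by band. All 10 keratin genes, among them KRT7, KRT8 and KRT18 of simple epithelia, and all 6 HOXC genes fell in 12q13.13, with 11.5 GATA6 and 10.0 SPDEF peaks per Mb. The 10 genes of pancreatic cancer and growth control fell in 10 bands with a median of 8.32 GATA6 and 2.71 SPDEF peaks per Mb, beside medians of 7.65 and 3.33 over all protein-coding genes of the chromosome. DUSP6 (12q21.33, 17.8 GATA6 per Mb), KMT2D, a histone methyltransferase (12q13.12, 12.9), and MDM2 (12q15, 12.4) lay in the bands of highest GATA6 density in that list. ETV6, an ETS-family repressor (12p13.2, 2.59), and ARID2, a chromatin remodelling subunit (12q12, 2.92), lay in the sparsest. The 31 endoderm and epithelial genes fell in 21 bands with medians of 9.33 GATA6 and 4.13 SPDEF peaks per Mb. EPS8, an adaptor of actin dynamics, lies in 12p12.3 with 15 GATA6 peaks (2.885 per Mb) and 0 SPDEF peaks. The sodium channel gene SCNN1A and the tetraspanin gene CD9 lie in 12p13.31 with 14 GATA6 and 7 SPDEF peaks (2.98 and 1.49 per Mb). The last list held 4 genes of other cell types and the housekeeping gene GAPDH, and its 5 genes had band medians of 12.4 GATA6 and 3.68 SPDEF peaks per Mb. LUM and DCN of fibroblasts and IFNG of lymphocytes lie in 12q21.33 and 12q15.

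At a finer scale, peaks of 1 list whose edges lay within 12500 bp were joined into clusters. GATA6 formed 184 clusters with 513 peaks, 55.1% of its peaks against 45.0% on the other chromosomes, and SPDEF formed 67 clusters with 161 peaks, 48.6% against 30.2%. Denser peaks give more neighbours, so these shares move with the density that chose the chromosome. The GATA6 cluster with the most peaks, chr12:26253895-26281507 in 12p12.1, had 9 GATA6 peaks over 27.6 kb and 2 SPDEF peaks inside wider GATA6 peaks. The next, chr12:31884999-31910412 in 12p11.21, had 8 GATA6 and 2 SPDEF peaks. A 12q21.33 cluster at chr12:89318648-89354752 had 7 GATA6 peaks over 36.1 kb and 0 SPDEF peaks, and one in 12q14.2 at chr12:65050060-65073891 had 7 and 2. The SPDEF cluster with the most peaks, chr12:125401227-125425334 in 12q24.31, had 7 SPDEF and 4 GATA6 peaks, and 3 of its SPDEF peaks overlapped no GATA6 peak. In 12q21.33 a second place, chr12:89740477-89749202, had 5 SPDEF and 3 GATA6 peaks. The 12p11.23 cluster at chr12:27484521-27496704 had 5 SPDEF peaks, each on its own GATA6 peak, and a sixth GATA6 peak without SPDEF. SPDEF clusters of 4 peaks each lay in 12q13.13 (chr12:53763889-53775046, 3 GATA6 peaks) and 12q24.31 (chr12:122229883-122241803, 4 GATA6 peaks). Another of 4 peaks, in 12q21.1 (chr12:71552368-71558971), lay within 1 GATA6 peak.

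The widest GATA6 peak, 8036 bp at chr12:71551319-71559354 in 12q21.1, held 4 SPDEF peaks of 186, 216, 471 and 804 bp and ended a cluster of 6 GATA6 peaks. Next in width were 3274 bp in 12q15 (chr12:69723850-69727123, 3 SPDEF peaks), 2807 bp in 12q24.23 (chr12:120666415-120669221, 2 SPDEF peaks), 2763 bp in 12q13.13 (chr12:53318477-53321239, 2 SPDEF peaks) and 2398 bp in 12q21.2 (chr12:79272430-79274827, 1 SPDEF peak). All of these 5 overlapped SPDEF. Over all peaks of the chromosome, 23.31% of GATA6 peaks overlapped SPDEF and 70.4% of SPDEF peaks overlapped GATA6. The widest peaks of either list also have the most room for an overlap of 1 bp. The 5 widest SPDEF peaks all overlapped GATA6 as well. They measured 1533 bp in 12q13.13 (chr12:53763889-53765421), 1278 bp in 12q24.31, 1211 bp in 12q13.3, 1180 bp in 12q21.2 and 1154 bp in 12q14.2. Pairs in which both peaks were wide lay in 12q13.13 (2 pairs on 1 GATA6 peak), 12q24.23, 12q15 and 12p12.1, the last with an SPDEF peak of 1135 bp on a GATA6 peak of 1791 bp.

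**Figure D4:**
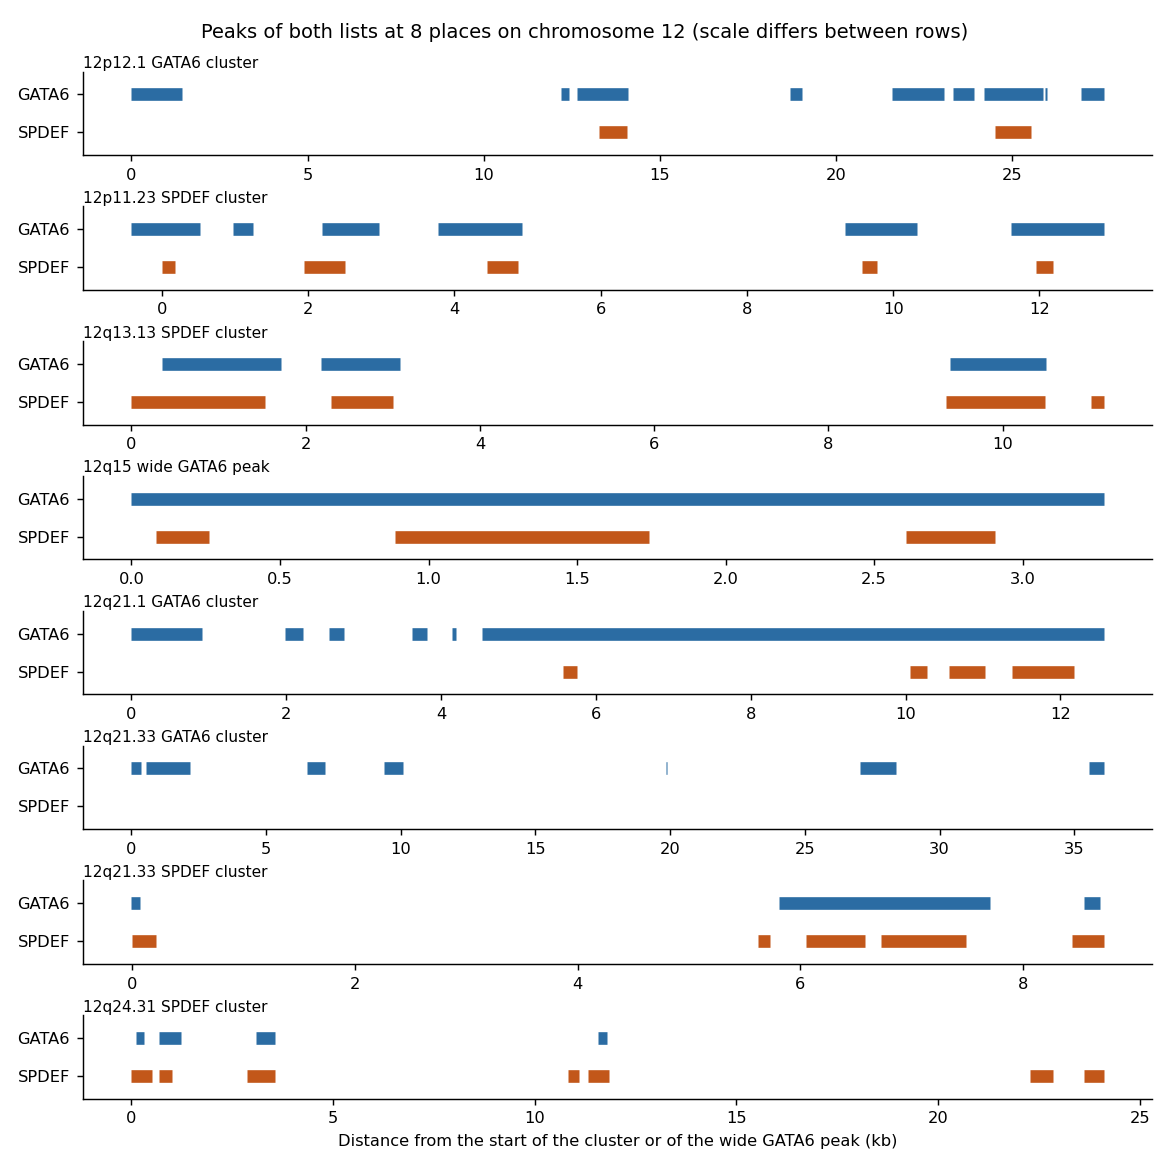
GATA6 (blue) and SPDEF (orange) peaks drawn to scale against the distance in kb from the start of the cluster or wide GATA6 peak, at 8 places named by band. The 12q21.1 row shows 4 SPDEF peaks inside the GATA6 peak of 8036 bp, and the 12q21.33 GATA6 cluster shows 7 GATA6 peaks and no SPDEF peak.

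Of the 331 SPDEF peaks, 233 (70.4%, 65.3 to 75.05) shared at least 1 bp with a GATA6 peak, and on the other chromosomes the share was 65.0% (63.1 to 67.0). Of the 931 GATA6 peaks, 217 (23.31%, 20.7 to 26.1) shared with SPDEF, against 14.9% (14.2 to 15.6). More SPDEF peaks per GATA6 peak leave more room for overlap, so the GATA6 share moves with the counts used for the choice. In the 243 overlapping pairs the SPDEF peak lay wholly inside the GATA6 peak 147 times (60.5%), and 23 GATA6 peaks carried several SPDEF peaks. The share of SPDEF peaks on GATA6 was not level along the chromosome. It was lowest among the dense sections in 12q13, where 40 of 78 overlapped (51.3%, 40.4 to 62.1), and highest in 12q21, where 49 of 52 did (94.2%, 84.4 to 98.0). These intervals do not overlap, but they are too narrow and the sections were set after seeing the counts. GATA6 density was 11.8 per Mb in 12q13 and 10.4 in 12q21. What set the shares apart was not tested. The 12p11 bands had 85.2% (67.5 to 94.1) and 12q24.11 to 12q24.31 had 64.4% (51.7 to 75.4). Among the 8 segments with most GATA6 peaks the share ran from 66.7% at 50 to 52 Mb to 94.1% at 88 to 92 Mb. Among the 8 with most SPDEF peaks it ran from 45.8% at 56 to 59 Mb to 93.3% at 89 to 91 Mb. The next lowest of the SPDEF segments was 54.8% at 46 to 55 Mb. The window at 76 to 77 Mb was in both sets, with 92.3%. Different lists chose these sets of segments, so their ranges cannot be compared directly. The share of GATA6 peaks on SPDEF had the opposite order, 30.4% in 12q13 and 17.3% in 12q21.

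**Figure D5:**
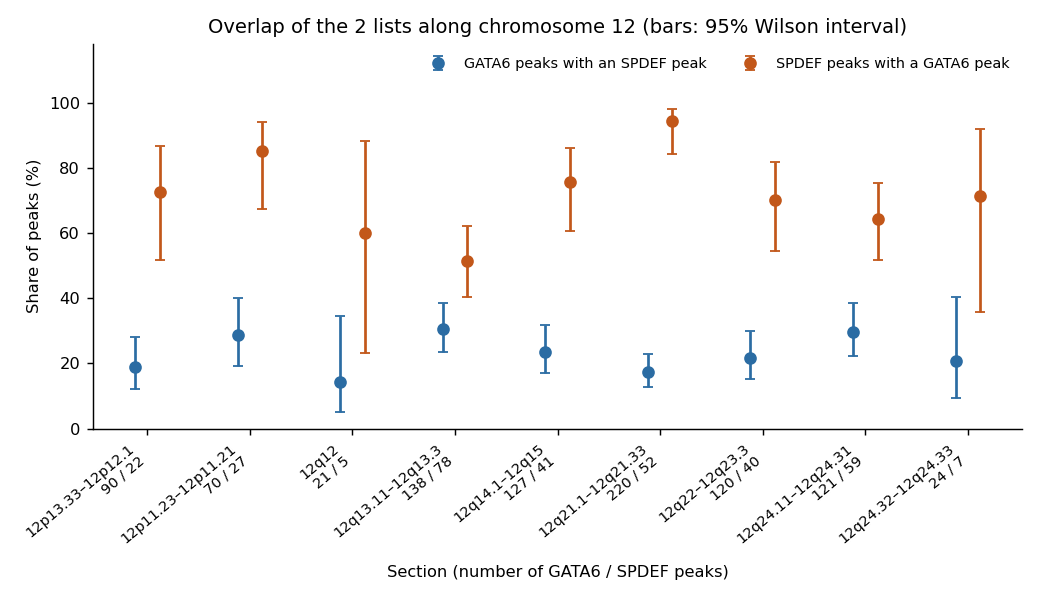
Share of GATA6 peaks overlapping an SPDEF peak (blue) and of SPDEF peaks overlapping a GATA6 peak (orange) in percent, by section, with 95% Wilson intervals and the number of peaks under each name. For SPDEF the share is 51.3% in 12q13.11–12q13.3 and 94.2% in 12q21.1–12q21.33.

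The 98 SPDEF peaks without a GATA6 overlap had a median distance of 21.7 kb to the nearest GATA6 peak, 39 of them within 10 kb, 43 at 10 to 100 kb and 16 beyond. Neighbouring GATA6 midpoints on the chromosome lay a median of 35.6 kb apart. That spacing runs between midpoints and the SPDEF distance runs from edge to nearest edge, so they cannot be compared directly. Of the 98 SPDEF peaks, 38 (38.8%) lay in 12q13, 21 (21.4%) in 12q24.11 to 12q24.31 and 3 (3.06%) in 12q21. Of all SPDEF peaks on the chromosome these sections held 23.6%, 17.8% and 15.7%, so the share in 12q24.11 to 12q24.31 was near its share of all. In 12q13 their median distance to GATA6 was 23.9 kb and in 12q24.11 to 12q24.31 it was 20.6 kb. The 3 in 12q21 had a median of 1.35 kb. The farthest SPDEF peak, chr12:49182945-49183382 in 12q13.12, lay 280.1 kb from GATA6.

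Width was the only other value per peak. GATA6 peaks had a median of 377 bp (quartiles 240.5 and 741.5) against 343 bp on the other chromosomes, and SPDEF peaks had 302 bp (quartiles 214 and 497.5) against 259 bp. Peaks shared with the other factor were wider, 550 against 351.5 bp for GATA6 and 313 against 265.5 bp for SPDEF, and a wider peak also has more room to overlap. Median SPDEF width was 329 bp in 12q13 and 268 bp in 12q21, while GATA6 width was 391.5 and 419.5 bp. A width under 50 bp, shorter than 1 nucleosome, was given for 21 GATA6 and 10 SPDEF peaks, the narrowest being 1 and 2 bp. The sources used do not say how such intervals arose. The third-longest stretch without a peak of either list, 2718 kb at chr12:16132196-18850122, lay in 12p12.3.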

How the data were processed

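The authors' deposited GATA6 and HA (SPDEF) lists give chromosome, start and end of each peak, in base pairs, with no score. Per the submitters' processing notes, the tools include MACS2 2.2.7.1, a peak caller, Bowtie2 2.4.4, an aligner, SAMtools 1.14 and deepTools. The builds are mm10 and hg19. What each tool was run with, which control it used and whether a list merges its 3 libraries are not given in the sources used here. Each list was taken as 1 measurement, its depth is unknown, and no test was made. The mouse list was left out, and control (IgG) and H3K4me3 peaks were not analysed here: counts therefore have no control beside them. Positions were counted from 1.

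A peak was placed by its midpoint. Bands came from circlize 0.4.16, chromosome lengths from GenomeInfoDb 1.38.1 (R 4.3.3), and other steps used Python 3.11.15 with numpy 2.4.6, pandas 2.3.3, scipy 1.17.1 and matplotlib 3.10.9. The other chromosomes were 1 to 22 and X without 12, also less 1 Mb around their centromere bands. Windows with under 50% of usable length were left out. Rates carry exact Poisson intervals and shares Wilson intervals. Genes were tied to bands by name from a RefSeq table of GRCh38.p14, all 62 listed genes having a band (some are not reported here by name), and no sequence was read. The scripts were checked on simulated lists. Regions named were, per list, the 8 dense segments with most peaks, the 8 densest bands of at least 5 peaks, the 5 largest clusters and the 5 widest peaks, with the 3 sparsest GATA6 bands, the 5 pairs widest in both lists and the 5 longest stretches without peaks. Genes of a band outside the lists, the window with SPDEF more numerous and the farthest SPDEF peak were named after their values were seen. Members and gene lists were chosen with earlier results of these data known, and the sections and the blocks of windows, with their borders, were set after seeing the counts.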

Additional observations from a re-analysis of the deposited data

How the results depend on the processing

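Over 12 results 56 alternatives were run, of which 37 stayed within the interval or within 1.5 times the count and 19 did not. Of the density ratios 0 changed direction, while shares and counts have no direction to change. With only the wider 50% of each list the density ratios to other chromosomes were 2.38 for GATA6 and 3.79 for SPDEF, the overlap shares 19.96% of GATA6 and 57.8% of SPDEF peaks, and the 12p11 ratio to the rest of the short arm for GATA6 4.91 instead of 3.55. Requiring 50% of both peaks to be covered left shares of 9.45% and 26.6%. Per protein-coding gene the density ratios were 1.81 and 2.69. Without chromosomes 14 and 20 the SPDEF ratio was 3.63. A split of the short arm at 26 Mb gave 5.44 for GATA6 and, for SPDEF, 10.3 instead of 5.61. Dense windows numbered 62 and 75 of 255 for GATA6 and SPDEF at 0.5 Mb, 16 and 24 of 63 at 2 Mb, 13 and 28 at a threshold of 5 times, and 4 and 13 against the mean of chromosome 12 itself. The last alternative, the split at 26 Mb, the alternatives without chromosomes 14 and 20 or the short arms of chromosomes 13, 14, 15, 21 and 22, and all alternatives for 12p11 were chosen after seeing the data. No paired analysis was possible because each factor has 1 list and no replicate column. Depth is unknown, so a stretch without peaks does not show that a factor was absent.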
